A study of Mus musculus with 11 samples.

Results

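The insulin-like growth factor (IGF) genes form a small signalling family. Of 10 genes named for it, 9 had a row among the 14667 genes in each deposited table, picked by gene symbol. They were the ligand gene Igf2, the receptor genes Igf1r and Igf2r, and 6 genes for binding proteins, Igfbp2 to Igfbp7. Igf1 is not analysed here. RNA came from the nucleus accumbens, a reward region of the ventral striatum, of C57/BL6 mice in which a virus overexpressed a transgene, 1 mouse per library. The groups were 4 mice with E2F3a and saline, 3 mice with GFP and cocaine, and 4 mice with GFP and saline. E2F3a is a form of the cell cycle transcription factor E2F3, and green fluorescent protein (GFP) is the control transgene, so every mouse carried a virus. The sources used here do not state the type of virus, its promoter, the cells it reached, the dose and timing of cocaine, or the age of the mice.

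IGF1 and IGF2 are secreted growth factors that act through the tyrosine kinase receptor IGF1R, which signals through insulin receptor substrates, PI3K and AKT. IGF2R binds IGF2 without a kinase and carries it to lysosomes for breakdown. IGF binding proteins hold the ligands in tissue fluid, which can limit or prolong their action, and proteases release them. In the adult rodent brain Igf2 is made mainly by the leptomeninges and choroid plexus, while several binding proteins are made by glia, vessels or neurons.

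The files hold the authors' comparison statistics, so levels per mouse and sequencing depth are unknown, and no value per sample can be shown. Each standard error (SE) below is the deposited log2 fold change divided by its deposited moderated t, and each 95% interval uses the 11.29 degrees of freedom implied by t and p. The IGF genes were chosen with results of these tables known, the low Igfbp2 estimate with cocaine among them, and both tables use the same GFP and saline mice. The values are therefore a description, and the p-values printed are those of the authors' moderated test, given as listed. By it no gene of either table passed an adjusted p of 0.05 (0% of all genes with cocaine and 0% with E2F3a). Markers of medium spiny neurons, the main cells of the accumbens, had mean log2 expression of 6.37 to 9.92 for the 9 of 10 measured in the authors' deposited table. E2f3, the overexpressed gene, stood at a log2 fold change of 1.01 (SE 0.20) with E2F3a over GFP in the authors' deposited table, with an unadjusted p of 0.000337 and an adjusted p of 1.00.

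Start regions of 3 genes are shown first because the results turn on the genes behind them. Igfbp2 had the lowest estimate with cocaine and Igfbp7 the second smallest p of the 9 there. Igfbp5 is the neighbour of Igfbp2 and did not share its value. Igfbp2 (ENSMUSG00000039323, mm10 chromosome 1, 72824503 to 72852474, plus strand, 4 exons in the longest transcript) and Igfbp5 (ENSMUSG00000026185, chromosome 1, 72857932 to 72874884, minus strand, 4 exons) lie end to end, with 5457 bases between them. Igfbp7 (ENSMUSG00000036256) lies on chromosome 5, 77349240 to 77408041, minus strand. The sequences are RefSeq's for GRCm38.p6, the assembly of mm10, from 250 bases before to 50 after the start, 5′ to 3′ on the gene's strand. Capitals mark GC boxes (GGGCGG) and the E-box CACGTG on either strand.
Igfbp2, chr1:72824230-72824529: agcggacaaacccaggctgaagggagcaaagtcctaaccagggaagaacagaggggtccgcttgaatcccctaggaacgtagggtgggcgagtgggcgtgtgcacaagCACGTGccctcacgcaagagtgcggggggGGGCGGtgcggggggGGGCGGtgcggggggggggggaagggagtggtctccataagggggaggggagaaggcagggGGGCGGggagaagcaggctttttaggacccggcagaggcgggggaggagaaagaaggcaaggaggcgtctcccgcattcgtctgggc
Igfbp5, chr1:72874816-72875115: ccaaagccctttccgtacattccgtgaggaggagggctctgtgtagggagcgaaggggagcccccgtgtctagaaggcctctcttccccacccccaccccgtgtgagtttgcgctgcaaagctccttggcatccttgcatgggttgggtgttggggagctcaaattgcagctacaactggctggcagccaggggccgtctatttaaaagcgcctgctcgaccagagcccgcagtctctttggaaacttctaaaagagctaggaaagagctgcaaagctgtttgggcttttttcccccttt
Igfbp7, chr5:77407996-77408295: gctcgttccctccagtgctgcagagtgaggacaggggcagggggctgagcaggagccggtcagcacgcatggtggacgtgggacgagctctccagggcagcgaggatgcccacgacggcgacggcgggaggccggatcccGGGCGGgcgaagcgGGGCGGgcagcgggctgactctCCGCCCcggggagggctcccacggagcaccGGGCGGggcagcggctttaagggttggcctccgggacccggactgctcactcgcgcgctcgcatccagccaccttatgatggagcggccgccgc

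The Igfbp2 start region held 3 GC boxes and 1 E-box, that of Igfbp7 held 4 GC boxes, and that of Igfbp5 held none of the motifs searched. Among the other IGF genes, that of Igf2r held 3 GC boxes and 2 E-boxes and that of Igf1r 2 GC boxes. Those of Igf2, Igfbp3, Igfbp4 and Igfbp6 held neither motif. Among the 32851 start regions of the same length in the RefSeq table, 35.7% held a GC box and 7.15% held CACGTG. All 9 IGF genes had an entry, and the 1 nearest the annotated start was taken. For Igf1r it lay 570 bases and for Igfbp6 176 bases from that start. Igfbp2 has 2 entries and Igf2 has 4. None of the 9 held an E2F site of the letters TTTCGCGC, TTTGGCGC, TTTCCCGC or TTTGCCGC, which 2.26% of all start regions held. The cAMP response element TGACGTCA was also absent from all 9, and 1.79% of start regions had it. TATAAA, searched on either strand, stood in those of Igfbp4 and, on the opposite strand, Igfbp6, against 13.6% of all. These matches describe letters and do not show binding.

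Igfbp5 was the most abundant of the 9 genes and Igf1r the least when expression was set per length. The scale is the authors' mean log2 expression, for which the libraries averaged are not stated, minus log2 of the length in kilobases of the longest GENCODE M21 transcript. On it Igfbp5 stood at 5.58, Igfbp7 at 4.53, Igfbp4 at 3.76, Igfbp2 at 3.62, Igfbp3 at 3.27, Igf2r at 3.07, Igf2 at 2.27, Igfbp6 at 1.85 and Igf1r at 1.21. Without the log these are 47.8 units per kilobase for Igfbp5 and 2.31 for Igf1r. The steps from Igfbp4 to Igfbp2, from Igfbp2 to Igfbp3 and from Igfbp3 to Igf2r were smaller than the larger implied SD between libraries of each pair. The step from Igf2 to Igfbp6 (0.418) exceeded that SD as implied by the E2F3a comparison (0.413), but not as implied by the cocaine comparison (0.422). The other steps exceeded the SD from either. By this scale Igfbp5 lay above 91.8% of all genes, Igfbp7 above 80.4% and Igf1r above 18.6%. The long transcript of Igf1r (11409 bases) puts it lower here than its mean log2 expression of 4.72, above 48.9% of genes, would.

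The estimates of all 9 genes were less precise than those of most genes of like abundance. In both authors' deposited tables, each had a larger SE than the median of genes whose mean log2 expression lay within 1 of its own. The percentile of the SE in that window ran from 69.6 for Igfbp7 to 96.9 for Igfbp3 with cocaine, and from 68.5 to 96.9 for the same genes with E2F3a. The tables come from the same fit, so this is 1 measurement of spread and not 2. The implied SD of a library around its group mean, from the E2F3a table, was 0.49 for Igfbp3, 0.41 for Igfbp6, 0.39 for Igf1r, 0.38 for Igfbp2 and 0.22 for Igfbp7 on the log2 scale.

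**Figure D1:**
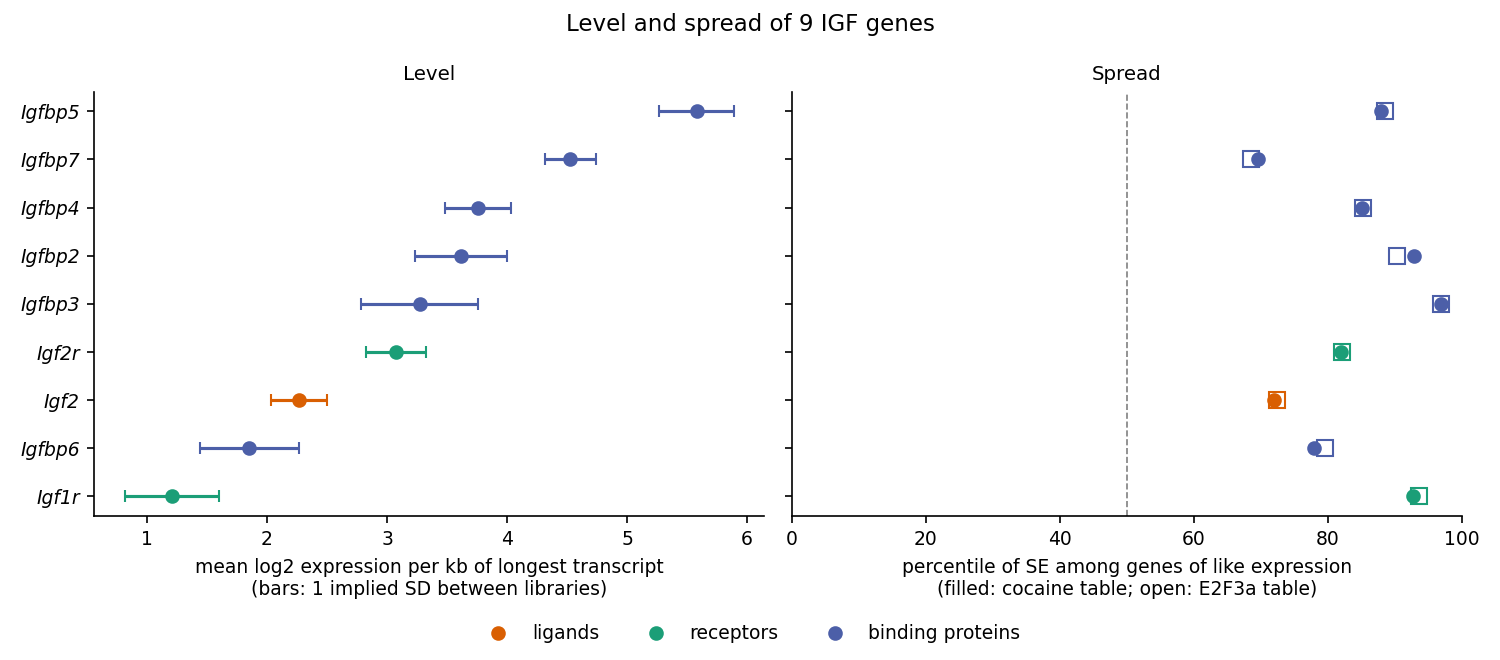
Level and spread of the 9 IGF genes. On the left, the mean log2 expression per kilobase of the longest transcript, with bars of 1 implied SD between libraries; Igfbp5 stands highest at 5.58 and Igf1r lowest at 1.21. On the right, the percentile of the SE among genes whose mean log2 expression is within 1, filled for the cocaine table and open for the E2F3a table; every point lies right of the dashed line at 50.

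The cocaine comparison set GFP mice given cocaine against GFP mice given saline. The estimates of the binding protein genes lay below 0 after cocaine, that of Igfbp2 by far the most, while the estimates of the ligand gene Igf2 and both receptor genes lay above 0. All 6 binding protein estimates were below 0, as were 53.8% of all genes. The sign, though not the size, held with the overall median removed, or a trend with transcript length and expression. The ligand and receptor genes were 3 of 3 above 0, as were 46.2% of all genes. The median log2 fold change of the binding proteins was -0.41, against -0.02 over all genes. Over all 9 IGF genes it was -0.09, or -0.19 with the trend removed. None of the 9 passed the adjusted threshold (adjusted p = 0.533 or more per the authors' deposited table, from a moderated test with Benjamini-Hochberg adjustment). At an unadjusted p under 0.05 there were 2 of 9, both lower, against 9.25% of all genes in either direction, 7.51% lower and 1.74% higher.

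Among the secreted regulators, Igfbp2 binds both IGFs and is also known to bind integrins through an RGD sequence. The authors' deposited table lists it at a log2 fold change of -1.48 (SE 0.34, 95% interval -2.22 to -0.73, unadjusted p = 0.00108) with cocaine over saline. That is a level 2.78-fold lower with cocaine. With the trend in transcript length and expression removed, the estimate was -1.28. Of the 14667 genes, 57 had a lower estimate. Igfbp7, a protein of blood vessel walls that binds IGFs weakly, was listed at -0.41 (SE 0.17, interval -0.78 to -0.04, unadjusted p = 0.0347) per the authors' deposited table. Removing the genome-wide trend with transcript length and expression put it at -0.22, no longer past an unadjusted p of 0.05.

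The remaining binding proteins had intervals that include 0. Igfbp3, the main carrier of IGFs in blood, stood at -0.46 (SE 0.39, interval -1.32 to 0.40) per the authors' deposited table, and at -0.32 with the trend removed. Igfbp6, which prefers IGF2, was at -0.41 (SE 0.32, interval -1.12 to 0.30) per the authors' deposited table, and at -0.20 with the trend removed. Igfbp4, an inhibitor of IGF action that the protease PAPP-A cleaves, was at -0.09 (SE 0.21) per the authors' deposited table, and at -0.04 with the trend removed. Igfbp5, which binds to extracellular matrix, was at -0.08 (SE 0.23, interval -0.59 to 0.43) per the authors' deposited table, and at -0.19 with the trend removed. The interval of Igfbp5 ends above that of its neighbour Igfbp2, and the 2 intervals do not overlap. Those of Igfbp2 and Igfbp3 do overlap.

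On the receptor side, Igf1r was listed at 0.50 (SE 0.30, interval -0.16 to 1.15) per the authors' deposited table, and 521 genes stood higher. Removing the trend put Igf1r at 0.28. Igf2r was at 0.08 (SE 0.19) per the authors' deposited table and at -0.09 with that trend removed. Igf2, the ligand gene, was at 0.13 (SE 0.18, interval -0.27 to 0.53) per the authors' deposited table. The upper ends of the intervals are a 1.44-fold higher level of Igf2 and a 2.22-fold higher level of Igf1r. In bulk tissue, fewer cells of a type and less RNA per cell cannot be told apart for any of these genes.

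**Figure D2:**
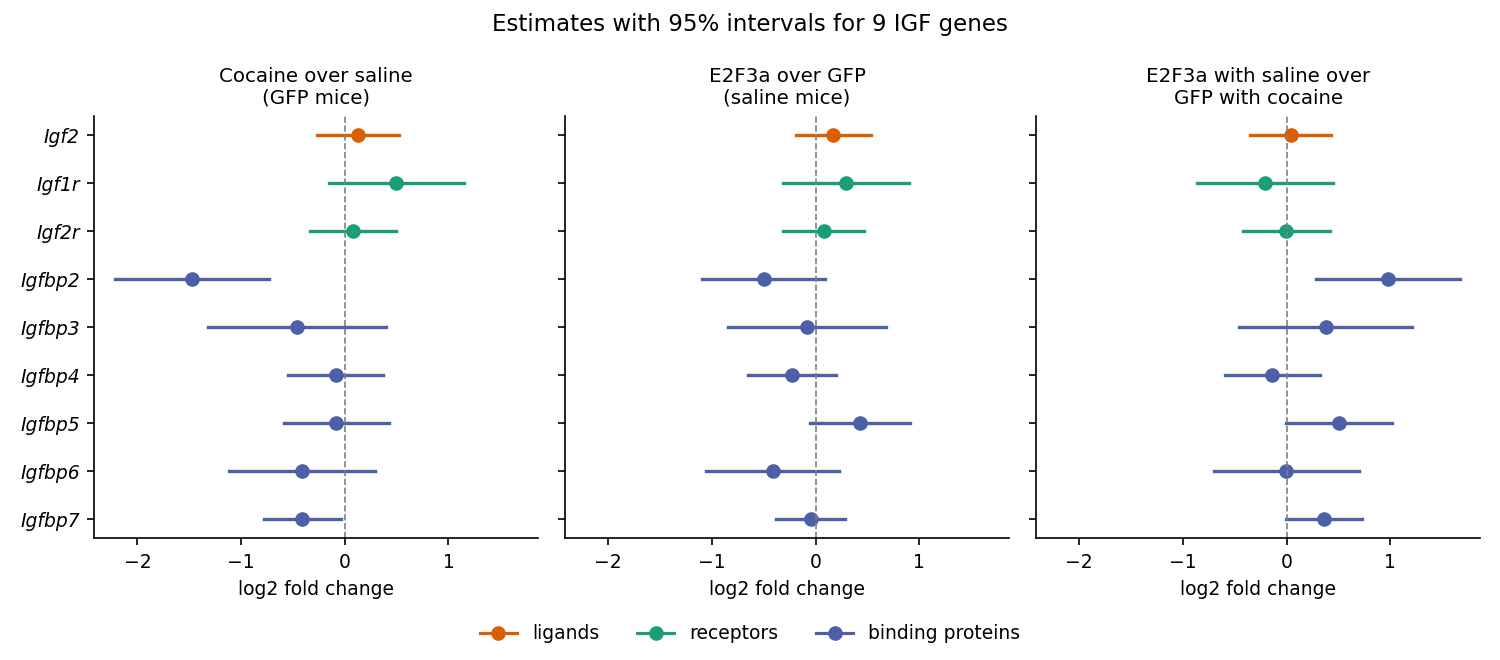
Log2 fold changes (points) with 95% intervals (lines) of the 9 IGF genes, coloured by role, in the cocaine comparison, the E2F3a comparison and the difference between E2F3a mice given saline and GFP mice given cocaine. The intervals that lie clear of 0 are those of Igfbp2 (-2.22 to -0.73) and Igfbp7 (-0.78 to -0.04) with cocaine, and that of Igfbp2 (0.28 to 1.67) in the third panel.

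The E2F3a comparison set mice with E2F3a against mice with GFP, all given saline. Igfbp5 stood above 0 and the other binding proteins below it, and no IGF gene reached an unadjusted p under 0.05 (0 of 9, against 0.955% of all genes, 0.409% lower and 0.545% higher). The adjusted p was 1.00 for each of the 9 in the authors' deposited table. The median log2 fold change of the 9 was -0.05, and that of the 6 binding proteins -0.16, against 0.0077 over all genes. Among binding proteins 5 of 6 were below 0, against 47.5% of all genes, and 4 of the 9 IGF genes were above 0, against 52.5%.

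Igfbp2 was again the lowest, at -0.50 (SE 0.27, interval -1.10 to 0.09, unadjusted p = 0.0897) per the authors' deposited table, with 170 genes lower. Igfbp5 was the highest, at 0.42 (SE 0.22, interval -0.06 to 0.91, unadjusted p = 0.0790) per the authors' deposited table, with 383 genes higher. So the neighbouring genes stood at opposite ends of the family here. Igfbp6 was at -0.42 (SE 0.29), Igfbp4 at -0.23 (SE 0.19) and Igfbp3 at -0.08 (SE 0.35) per the authors' deposited table. Igfbp7, at -0.05 (SE 0.15) per the authors' deposited table, stood at 0.03 after removal of that trend.

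Of the receptors, Igf1r was at 0.29 (SE 0.28) and Igf2r at 0.08 (SE 0.18) per the authors' deposited table, which became 0.13 and -0.04 with the trend removed. Igf2 was at 0.17 (SE 0.16, interval -0.19 to 0.53) per the authors' deposited table. For all of these the interval includes 0, and its upper end is a level at least 1.38-fold higher.

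**Figure D3:**
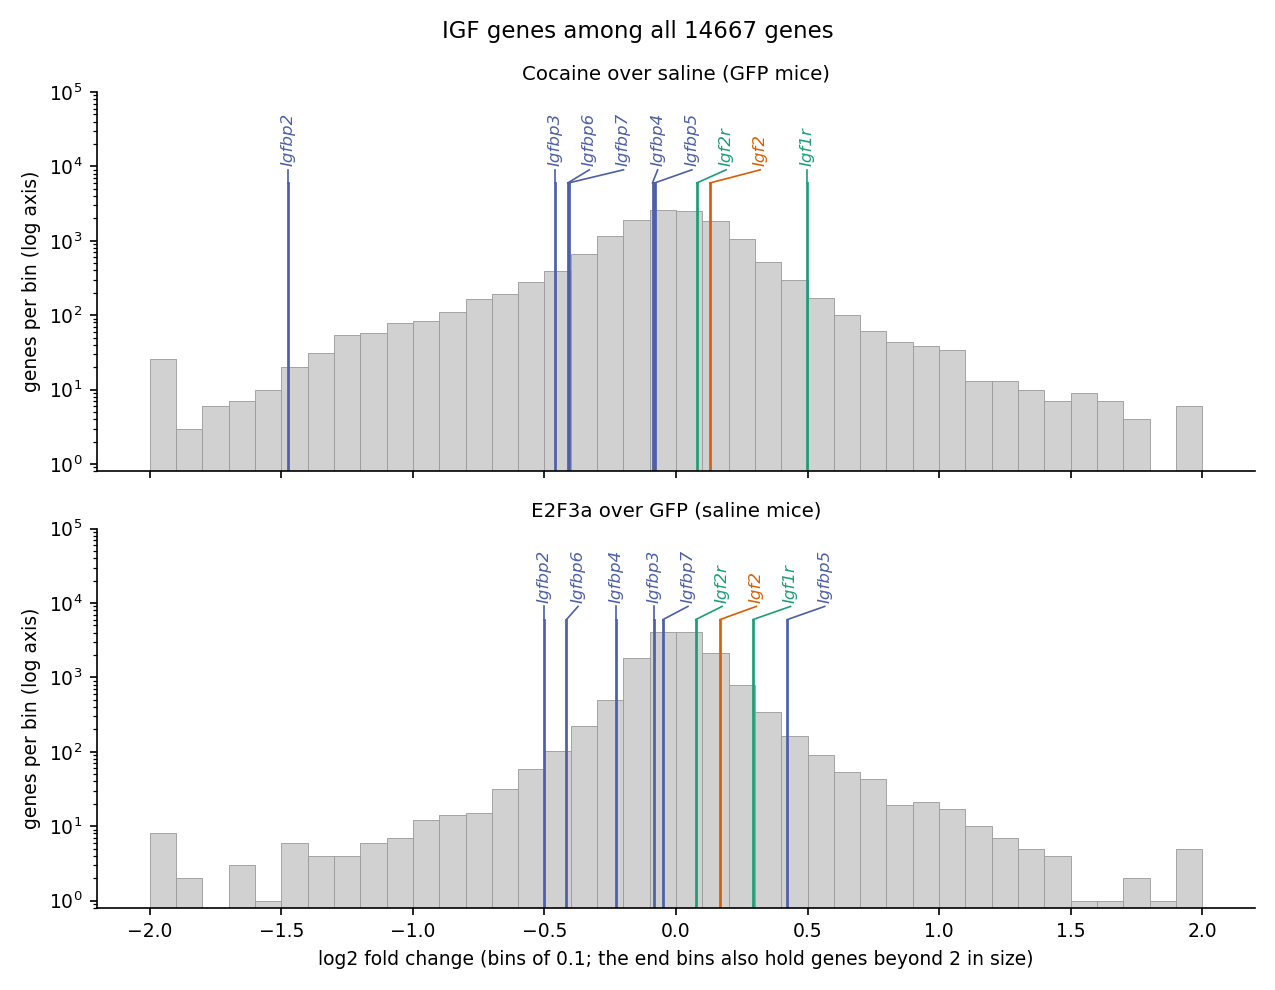
Number of genes (log axis) per bin of 0.1 of log2 fold change for all 14667 genes, with the 9 IGF genes as coloured lines (blue binding proteins, green receptors, orange ligand). With cocaine Igfbp2 stands at -1.48, far from the other IGF genes, and with E2F3a the family runs from -0.50 for Igfbp2 to 0.42 for Igfbp5.

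Setting the E2F3a mice given saline directly against the GFP mice given cocaine removes the shared GFP and saline mice. Both virus and treatment differ between these groups, so this is an effect of neither alone. The difference still uses the cocaine mice, whose low Igfbp2 estimate was known when the genes were chosen, so it too is a description. Igfbp2 was higher in the E2F3a mice by 0.97 on the log2 scale (SE 0.32, interval 0.28 to 1.67), a level 1.96-fold higher. Igfbp5 was at 0.50 (SE 0.23, interval -0.01 to 1.02) and Igfbp7 at 0.36 (SE 0.17, interval -0.01 to 0.73). Igf2 (0.04), Igf2r (-0.0040) and Igfbp6 (-0.0052) lay near 0. The remaining estimates were 0.37 for Igfbp3, -0.14 for Igfbp4 and -0.21 for Igf1r. By an approximate moderated test with Benjamini-Hochberg adjustment over all genes, 0 of 9 passed an adjusted p of 0.05 (0% of all genes). Igfbp2 alone, 1 of 9, had an unadjusted p under 0.05, against 4.52% of all genes, or 4.09% higher and 0.43% lower. Of the 9 estimates 5 were above 0 and 4 below, against 57.7% and 42.3% of all genes.

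That SE assumes equal weights of the libraries. For Igfbp2 the ratio of the SE with cocaine to that with E2F3a was 1.25, above 99.3% of genes, against a median of 1.08 and 1.08 from the group sizes alone. Without equal weights the SE of its difference between E2F3a and cocaine mice could lie anywhere from 0.20 to 0.43.

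The other genes of the pathway had estimates on both sides of 0, 29 above and 19 below with cocaine, where 46.2% of all genes lay above. Of 59 genes listed, 48 were measured. With cocaine, an unadjusted p under 0.05 was reached by 3 of the 48, all lower, against 7.51% of all genes lower, and with E2F3a by 0 of 48, against 0.955%. None passed an adjusted p of 0.05. Their median log2 fold change was 0.06 with cocaine and 0.04 with E2F3a, against -0.02 and 0.0077 over all genes. Medians with cocaine were 0.27 for 3 insulin and related receptors, 0.21 for 9 receptor adaptors, 0.08 for 20 genes of the PI3K, AKT and mTOR pathway, 0.06 for 4 FoxO factors, -0.09 for 5 genes of the growth hormone axis and -0.14 for 4 genes of binding protein proteases and their inhibitors. The median was -0.44 for H19 and Igf2bp3, which lay on opposite sides of 0. Igfbpl1, the only measured gene of the list of insulins and other binding proteins, stood at -0.40 (SE 0.24) per the authors' deposited table.

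The pathway gene with the smallest p was H19, an imprinted noncoding RNA that lies next to Igf2 and shares its control region. The authors' deposited table lists H19 at -1.27 (SE 0.25, interval -1.83 to -0.71, unadjusted p = 0.000366) with cocaine over saline, and at -0.32 (SE 0.20) with E2F3a over GFP. Igf2, 72622 bases away, stood at 0.13 and 0.17 in the same tables, and the cocaine interval of Igf2 lies wholly above that of H19. Eif4ebp1, a translation inhibitor that mTOR switches off, was at -0.68 (SE 0.25) and Socs2, a suppressor of growth hormone signalling, at -0.40 (SE 0.18) with cocaine in the authors' deposited table.

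Of the 9 receptor adaptors, 5 had estimates above 0 and 4 below it with cocaine, where 46.2% of all genes lay above. With E2F3a 8 lay above 0 and 1 below, where 52.5% of all genes lay above. None had an unadjusted p under 0.05, against 9.25% of all genes with cocaine and 0.955% with E2F3a. With cocaine the authors' deposited table gives Insr, the insulin receptor, at 0.27 (SE 0.12), Irs2 at 0.52 (SE 0.27), Irs1 at 0.43 (SE 0.34) and Grb10, an adaptor that dampens these receptors, at 0.34 (SE 0.26). The 4 adaptors below 0 with cocaine were Shc1 (-0.44), Grb14 (-0.20), Gab1 (-0.09) and Grb2 (-0.02) per the authors' deposited table, named after their values were seen. With E2F3a it gives Insr at 0.13 (SE 0.11), Irs2 at 0.26 (SE 0.25), Irs1 at 0.39 (SE 0.32) and Grb10 at 0.19 (SE 0.24) per the authors' deposited table. After H19 and Irs1, the smallest p with E2F3a belonged to Irs4 (1.27, SE 1.05) and Igf2bp3, an RNA-binding protein of Igf2 transcripts (0.26, SE 0.22), per the authors' deposited table. Irs4 had an estimate of 1.16 (SE 1.14) with cocaine per the authors' deposited table. With cocaine and with E2F3a, the interval of every receptor and adaptor gene named here includes 0, as does that of Igf2bp3. That of H19 includes 0 with E2F3a (-0.76 to 0.12) but not with cocaine. The cocaine intervals of Eif4ebp1 (-1.23 to -0.13) and Socs2 (-0.78 to -0.0062) also exclude 0.

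**Figure D4:**
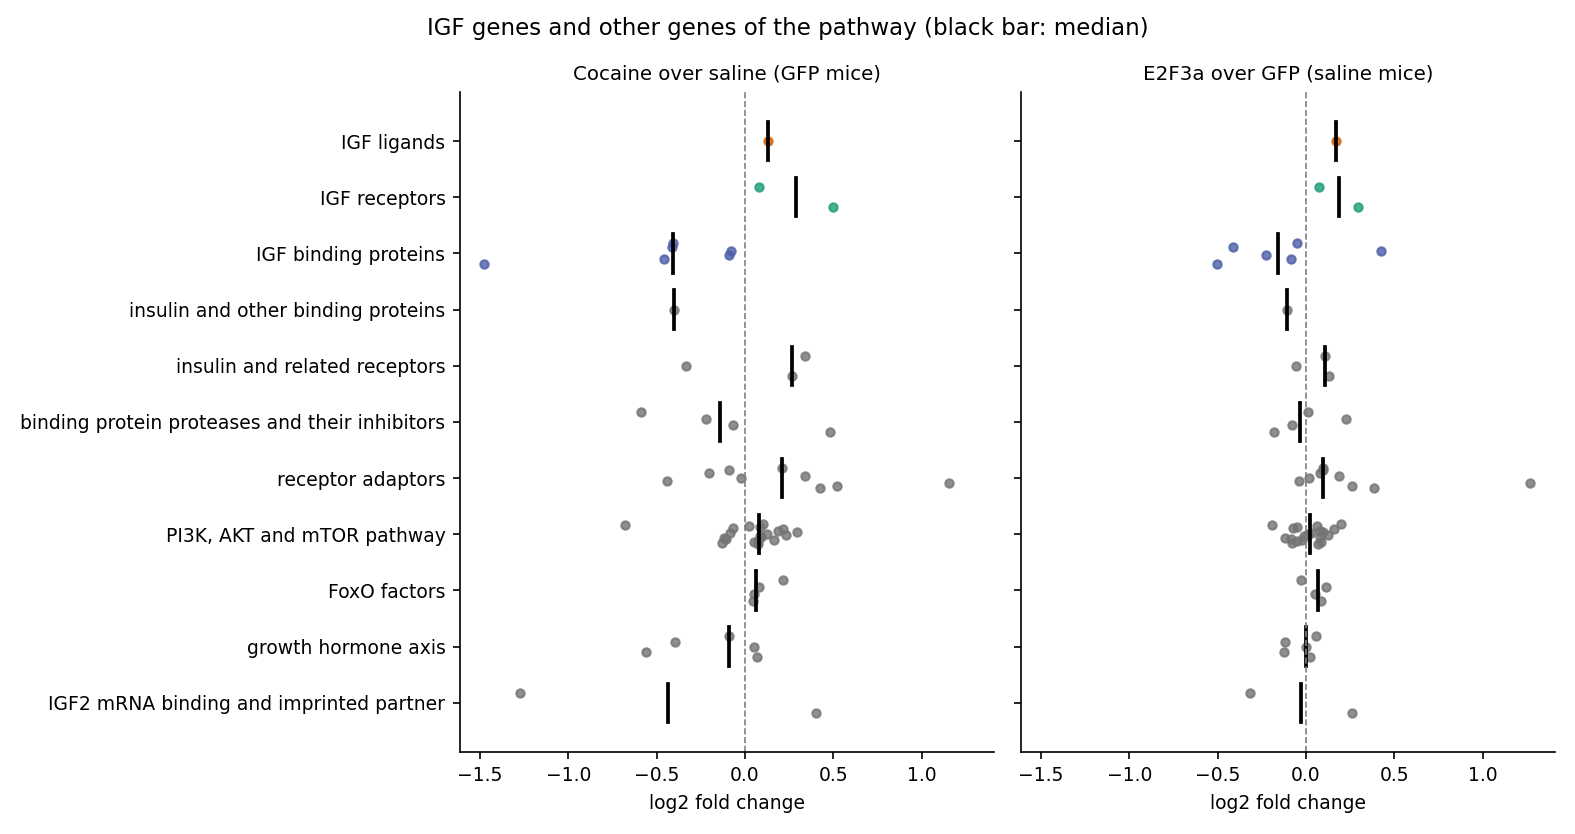
Log2 fold changes of the IGF genes (coloured) and of the other pathway genes (grey), 1 point per gene, with the median of each list as a black bar, for cocaine over saline on the left and E2F3a over GFP on the right. On the left Igfbp2 (-1.48) and H19 (-1.27) lie lowest and Irs4 (1.16) highest, while the 20 genes of the PI3K, AKT and mTOR pathway have a median of 0.08.

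Markers of blood cells and leukocytes lay low in the same comparisons as Igfbp2. All 8 measured leukocyte markers were lower with cocaine at an unadjusted p under 0.05, with a median of -1.52 (7.51% of all genes were). With E2F3a 8 of 8 lay below 0 (47.5% of all genes did), with a median of -0.49, and 2 had such a p (0.409% of all genes). All 5 blood cell markers were lower in both comparisons at an unadjusted p under 0.05, with medians of -1.54 with cocaine and -0.87 with E2F3a. Igfbp2 lay within the range of the leukocyte estimates in both comparisons. Among leukocyte markers the authors' deposited table gives Ighm at -0.96 (SE 0.21) and Cd79a at -2.34 (SE 0.61) with cocaine. Mean log2 expression of the 8 ran from -0.35 to 7.58. Their part in the Igfbp2 result was not tested, since no level per mouse is at hand.

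The genes whose pair of estimates was nearest to that of Igfbp2 included T cell genes. Among 4612 genes with a mean log2 expression within 1 of its own, the 5 nearest over the 2 comparisons were Cd8b1, Cd3e, Ly6i, Saa3 and Trbc2, at distances of 0.010 to 0.091 on the log2 scale. In the authors' deposited table Cd3e, of the T cell receptor complex, was at -1.47 (SE 0.51) with cocaine and -0.49 (SE 0.40) with E2F3a. For Igfbp7 the nearest of 5254 genes were Rhbdf2, Nfatc1, Adcy7, Skap2 and Myd88, at 0.0023 to 0.014. These distances rest on 2 estimates that share control mice. They are also far smaller than the SEs, which with cocaine were 0.34 for Igfbp2 and 1.17 for Saa3. The order of the nearest genes is therefore not resolved.

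Lists of cells that can make IGF binding proteins had medians nearer 0 than the blood and leukocyte lists. Of all genes, 7.51% were lower with cocaine at an unadjusted p under 0.05. Endothelial markers, set beside Igfbp7, had a median of -0.24 with cocaine, with 5 of 10 lower by that measure, and -0.03 with E2F3a, with 2 of 10 lower, against 0.409% of all genes. Cldn5 was at -0.59 (SE 0.17) and Egfl7 at -0.43 (SE 0.14) with cocaine in the authors' deposited table. Pericyte and smooth muscle markers had medians of -0.13 with cocaine and 0.10 with E2F3a, with 2 of 10 lower with cocaine and 1 of 10 higher with E2F3a, against 0.545% of all genes. The 10 astrocyte markers had medians of 0.0020 with cocaine and 0.14 with E2F3a. With cocaine 5 of them lay above 0 and 5 below, and 2 of 10 were lower at that p, Gfap at -0.60 (SE 0.25) and Aldh1l1 at -0.50 (SE 0.17) per the authors' deposited table. The 12 microglia markers had medians of -0.39 with cocaine and 0.03 with E2F3a, with 5 of 12 lower with cocaine. All 12 lay below 0 with cocaine, as did 9 of the 10 endothelial markers, against 53.8% of all genes. The 13 of 16 measured markers of leptomeningeal and perivascular fibroblasts, set beside Igf2, had a median of -0.15 with cocaine, with 1 of 13 higher at that p against 1.74% of all genes, and 0.23 with E2F3a. Of 10 ependymal and choroid plexus markers 5 were measured, with medians of 0.18 with cocaine, where 1 of 5 was lower, and 0.37 with E2F3a. The 9 measured medium spiny neuron markers had medians of 0.08 with cocaine and -0.11 with E2F3a, and 8 interneuron markers 0.16 and -0.08. Medians of 8 oligodendrocyte markers were -0.06 and 0.15, and of 7 precursor markers -0.01 and 0.14. No marker of these 4 lists had an unadjusted p under 0.05, against 9.25% of all genes with cocaine and 0.955% with E2F3a. The part of all these cells in the IGF values was not tested.

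**Figure D5:**
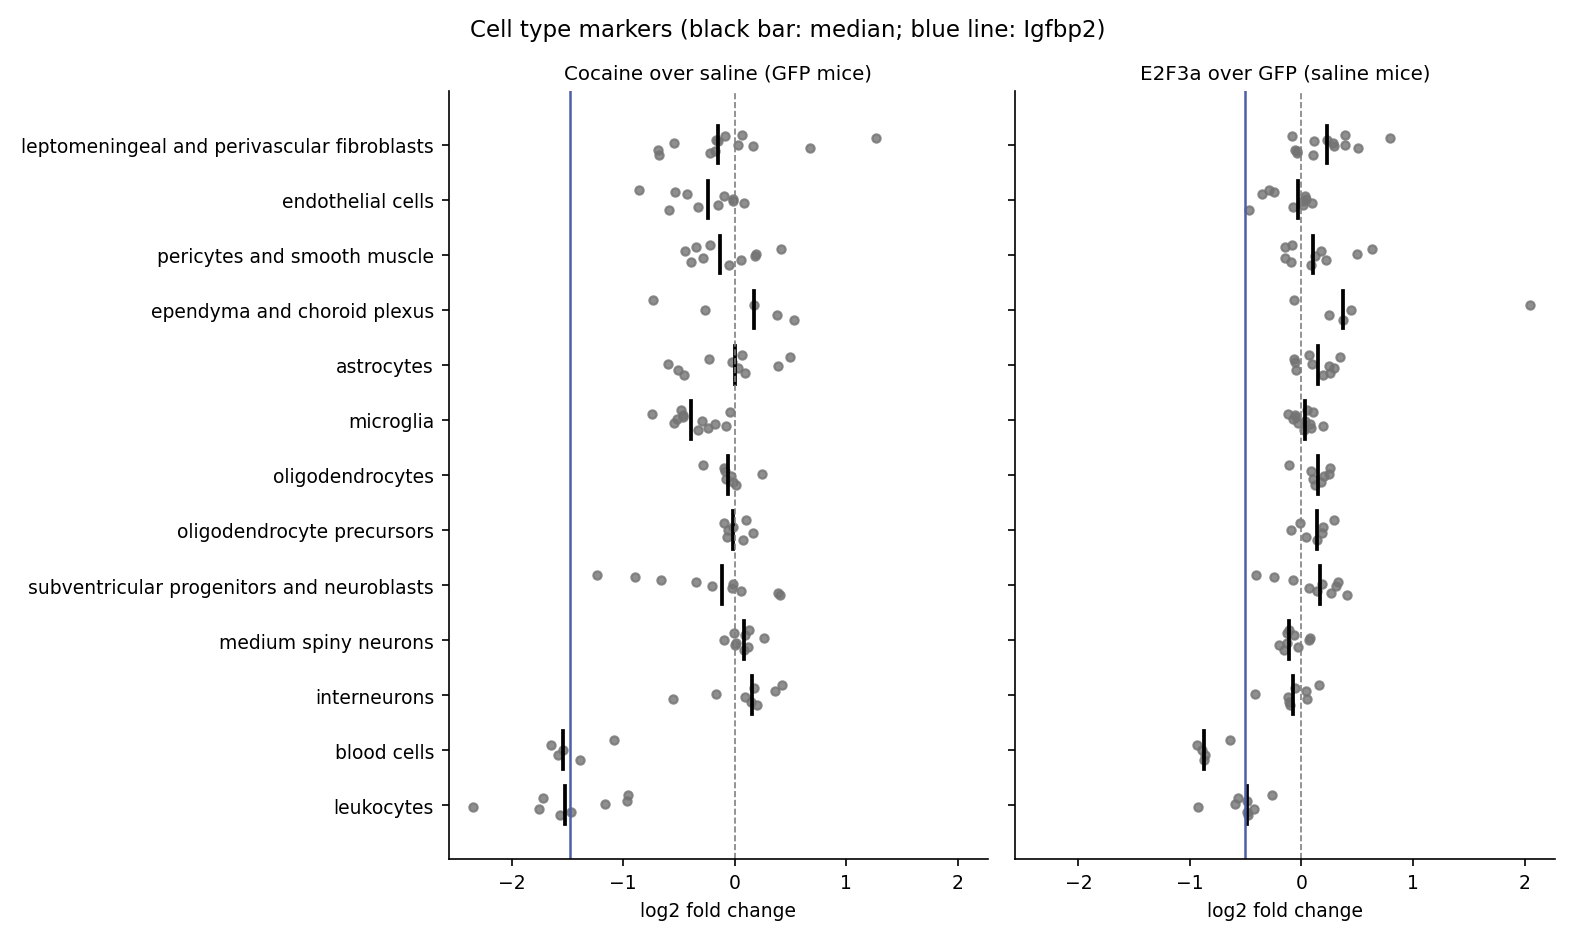
Log2 fold changes of cell type markers, 1 grey point per gene with the list's median as a black bar, for cocaine over saline on the left and E2F3a over GFP on the right; the blue line is Igfbp2 (-1.48 and -0.50). The blood cell and leukocyte lists are the ones whose points surround or pass the blue line on the left.

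Position can affect some counts. Igf2 (ENSMUSG00000048583, mm10 chromosome 7, 142650766 to 142666816, minus strand) overlaps the antisense gene Igf2os, and Igf2r (ENSMUSG00000023830, chromosome 17, 12682406 to 12769664, minus strand) overlaps the antisense gene Airn. The library kit does not mark strand, so reads from such partners cannot be told apart. Igfbp7 overlaps Polr2b, a subunit of RNA polymerase II, which stood at 0.0045 (SE 0.08) with cocaine in the authors' deposited table. Igf1r (ENSMUSG00000005533) lies on chromosome 7, 67952827 to 68233668, plus strand. Igfbp3 (ENSMUSG00000020427) and Igfbp4 (ENSMUSG00000017493) lie on chromosome 11, at 7206086 to 7213923 on the minus strand and 99041244 to 99054392 on the plus strand. Igfbp6 (ENSMUSG00000023046) lies on chromosome 15, 102144362 to 102149511, plus strand.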

How the data were processed

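Poly-A RNA of the nucleus accumbens of 11 mice was made into TruSeq v2 libraries, per the labels' protocols. HTSeq 0.6.0, TopHat2 2.0.9, Bowtie2 2.1.0 and the build mm10 appear, with no role, in the submitters' processing notes. No filter, normalization or test program is stated there. The authors deposited 2 tables of the same 14667 genes. Per the file headers each has a t statistic, log odds (a score), a log2 fold change, mean expression on a log2 scale, and p-values before and after adjustment. Recomputed Benjamini-Hochberg values matched the adjusted ones. No values per library were used, so the planned count tests gave way to the deposited statistics.

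The E2F3a mice given saline were set against GFP mice given cocaine by subtracting log2 fold changes, with a variance implied by both tables at equal weights. Only the arithmetic, not the equal weights, was tested on simulated data. The IGF genes and all lists were chosen with earlier results of these tables known. All IGF genes were named, the 4 pathway genes with the smallest p per comparison, Insr, Irs1, Irs2 and Grb10, and up to 2 genes of a marker list. Likeness was the Euclidean distance over both log2 fold changes. Alternatives were other thresholds, an expression floor, recentring, and removal of a trend in expression and transcript length (GENCODE M21, 14584 genes). Python 3.11.15, numpy 2.4.6, scipy 1.17.1, pandas 2.3.3 and matplotlib 3.10.9 were used.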

Additional observations from a re-analysis of the deposited data

How the results depend on the processing

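The count of IGF genes called stayed at 0 in the cocaine comparison with an adjusted p of 0.1 or adjustment over genes above the 25th percentile of expression, where the smallest adjusted p of an IGF gene was 0.604. It was 2 at an unadjusted p under 0.05, and 2 with a fold over 1.3 added. In the E2F3a comparison it was 0 under each of these. For E2F3a with saline against GFP with cocaine it was 0 with the variance of either table or an adjusted p of 0.1, and 1 at an unadjusted p under 0.05. The median over the IGF genes with cocaine ran from -0.25 to -0.07, and with E2F3a from -0.07 to -0.04, over recentring, removal of the trend, the mean, and leaving out the gene with the smallest p. Of 36 single-gene alternatives, 35 moved by less than 1 SE, and Igfbp7 with cocaine moved by more with the trend removed. The sign changed in 3, all named in the text, with the trend removed. Leaving out mice, another count test and the block were not run, since the tables hold no values per library. No paired analysis was possible because the tables carry no values per mouse. Depth per library is unknown, so precision is known only through the SE.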

Other observations

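Igfbpl1, an IGF binding protein-like gene known from immature neurons, was listed at -0.40 (SE 0.24) with cocaine and -0.11 (SE 0.21) with E2F3a per the authors' deposited table. The list of subventricular progenitor and neuroblast genes held 2 genes lower and 1 higher of 10 at an unadjusted p under 0.05 with cocaine, against 7.51% of all genes lower and 1.74% higher, with medians of -0.12 with cocaine and 0.17 with E2F3a. Within it, genes named after their values were seen, the cell division genes Ccnb1 (-1.23, SE 0.38) and Top2a (-0.89, SE 0.32) stood low with cocaine per the authors' deposited table. The neuroblast genes Dcx (0.41, SE 0.22) and Sox11 (0.39, SE 0.17) stood high with cocaine per the authors' deposited table. None of these passed an adjusted p of 0.05 by the authors' moderated test.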
